A study of Sus scrofa with 22 samples.

Results

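The enteroendocrine hormone genes examined here are CHGA, CHGB, GCG, GIP, CCK, SCT, MLN, GHRL, SST and NTS. They were chosen by symbol from the deposited gene tables, and all 10 had a row among the 24358 genes of each table. Expression was measured by RNA sequencing in jejunal mucosa, where most nutrients are absorbed, from 22 Ossabaw pigs, a breed prone to obesity and metabolic syndrome. WD_S denotes the 7 pigs fed a Western pattern of refined carbohydrate, added cholesterol and butter fat together with atorvastatin, a drug that inhibits cholesterol synthesis. HHD_S denotes the 8 pigs fed a heart healthy pattern built on unsaturated fat, whole grain, fibre, vegetables and fruit, with fish oil capsules of 1000 mg and atorvastatin. HHD denotes the 7 pigs fed the heart healthy pattern with the same fish oil and no atorvastatin. All pigs ate their diet for 6 months with 38% of energy as fat, and the daily dose of atorvastatin was 20 mg in the first 3 months and 40 mg in the last 3. No drug effect was estimated within the Western pattern, because pigs on it without the drug were not analysed here. The labels give no sex for single pigs, and the sources conflict on the drug in WD_S: each sample's diet label includes a statin, while the series design text gives the abbreviation in these samples' titles to Western-fed pigs without one. The sample labels are followed throughout. If the design text holds instead, WD_S against HHD_S differs in diet and drug, and WD_S against HHD in diet alone.

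Enteroendocrine cells are scattered singly through the intestinal epithelium and release peptide hormones towards the blood when nutrients reach the gut. They make each hormone as a longer precursor, cut it with prohormone convertases and store it in dense core granules packed with granins. CHGA and CHGB encode such granins, GCG encodes the precursor of the glucagon-like peptides, and GIP, CCK, SCT, MLN, GHRL, SST and NTS encode glucose-dependent insulinotropic peptide, cholecystokinin, secretin, motilin, ghrelin, somatostatin and neurotensin. GCG, GIP and SCT belong to one family of related peptides, as do MLN and GHRL. All 10 symbols matched a RefSeq gene. On the pig assembly Sscrofa11.1, by RefSeq gene spans, CHGA lies on chromosome 7 (114345542 to 114357799) and CHGB on chromosome 17 (14747282 to 14761995). GCG lies on chromosome 15 (68800557 to 68810268), GIP on chromosome 12 (25160783 to 25167952) and NTS on chromosome 5 (96261299 to 96272947). SST (125337560 to 125338742), GHRL (66442106 to 66453576) and CCK (25940674 to 25945879) lie on chromosome 13. MLN lies on chromosome 7 (30003501 to 30013064) and SCT on chromosome 2 (382783 to 385082).

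Libraries held 15316437 to 31564022 unique exon read counts, and 13626 genes passed a filter on low counts and were tested. Levels are given as CPM, read counts scaled to a common library total with the trimmed mean of M values (TMM). The tissue label was checked against marker genes. Enterocyte markers summed to between 21041 and 57595 CPM per library, pancreatic INS was at 0 reads in all 22 libraries, and gastric GKN1 had 5 reads in all. FABP6, an ileal gene, had a median of 0.204 CPM and stood at up to 26.1 CPM, that value being in WD_S 1. This pig held 646 of the 830 reads of FABP6. Not all other genes of this list of duodenal, gastric, pancreatic and ileal genes were scarce. TFF2 ran from 20.5 to 101 CPM with reads in all 22 libraries, and SLC10A2 from 0.104 to 7.97 CPM. The ileal gene SLC10A2 was also highest in WD_S 1, and it reached 7.76 CPM in HHD. In WD_S 1 GCG stood at 97.3 CPM and SST at 24.5 CPM. The part of intestinal region in these levels was not tested. CPM values are not divided by transcript length, so levels are compared between groups and pigs and not between genes. In bulk tissue, fewer hormone cells and less hormone RNA per cell cannot be told apart.

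Of the 10 genes, 9 were tested. SCT did not pass the filter: it had 13 reads over all 22 libraries, in 6 libraries, with 3 reads in WD_S, 7 in HHD_S and 3 in HHD. Its highest level was 0.187 CPM, in HHD_S, and the median was 0 in each group. A count of this size allows no comparison of secretin expression between the groups. By library pool, 1 of these reads lay in the 13 libraries of pool 3 and 12 in the 9 of pool 4. No group difference passed the test for any of the other 9 genes in any of the 3 comparisons, and the ranges of the groups overlapped for every one of them.

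Among the granins, CHGA ranged in WD_S from 25.4 to 83.4 CPM with a median of 51.3. Its range in HHD_S was 18.5 to 72.9 CPM with a median of 44.1, and in HHD 16.3 to 70.6 CPM with a median of 54.5. Every group thus held both low and high pigs, and the group means of 51.0 ± 18.7 CPM in WD_S (SD, n = 7), 42.2 ± 17.5 in HHD_S (SD, n = 8) and 46.6 ± 20.4 in HHD (SD, n = 7) lay within 1 SD of each other. CHGB ranged from 4.44 to 10.3 CPM in WD_S (median 7.60), from 3.04 to 11.1 in HHD_S (median 6.98) and from 2.58 to 13.5 in HHD (median 6.67). Its highest and lowest pigs, HHD 4 and HHD 5, were both in HHD.

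Somatostatin, the inhibitory hormone of the set, showed the largest difference of any tested member in the comparisons involving WD_S. SST ranged from 12.5 to 30.9 CPM in WD_S with a median of 18.8, from 10.1 to 22.6 in HHD_S with a median of 15.3, and from 6.13 to 22.5 in HHD with a median of 16.6. The 2 highest pigs, WD_S 2 and WD_S 1, were on the Western pattern, while most WD_S pigs fell within the range of the other groups. The mean was 19.7 ± 6.29 CPM in WD_S (SD, n = 7), 15.5 ± 3.86 in HHD_S (SD, n = 8) and 15.1 ± 5.76 in HHD (SD, n = 7).

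The products of the incretin genes GCG and GIP raise insulin release after a meal. The range of GCG was broader in the heart healthy groups than in WD_S. GCG ranged from 64.8 to 97.3 CPM in WD_S with a median of 88.0, from 47.0 to 103 in HHD_S with a median of 72.5, and from 44.0 to 94.8 in HHD with a median of 52.5. In HHD its values left a gap, with 4 pigs between 44.0 and 52.5 CPM and 3, HHD 1, HHD 2 and HHD 3, between 90.3 and 94.8. The 3 higher pigs were the HHD libraries of pool 3 with pig numbers under 2356, and the 4 lower ones were in pool 4 (HHD 4 and HHD 5) or numbered 2356 and above (HHD 6 and HHD 7). Over all 22 pigs the log2 difference of GCG was -0.29 for pool 4 against pool 3 and -0.25 for late against other pig numbers, and neither passed by edgeR. The mean of GCG was 80.95 ± 13.2 CPM in WD_S (SD, n = 7), 72.8 ± 21.3 in HHD_S (SD, n = 8) and 67.7 ± 24.1 in HHD (SD, n = 7). GIP ranged from 77.9 to 127 CPM in WD_S (median 88.5), from 62.4 to 106 in HHD_S (median 85.8) and from 36.9 to 115 in HHD (median 91.4). The lowest HHD pig for GIP was HHD 7, with the next, HHD 2, at 72.8 CPM. The order of the group medians of GIP, with HHD highest, differed from that of its means, with WD_S highest at 95.5 ± 18.2 CPM (SD, n = 7), HHD at 87.2 ± 26.6 (SD, n = 7) and HHD_S at 82.7 ± 16.9 (SD, n = 8).

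CCK, which triggers gall bladder contraction and pancreatic secretion in response to fat, was the steadiest member. It ranged from 9.63 to 16.3 CPM in WD_S (median 14.4), from 11.7 to 16.2 in HHD_S (median 13.9) and from 10.5 to 18.0 in HHD (median 14.8). Across all 22 pigs its highest value was 1.87 times its lowest. NTS, which is released after fat ingestion and slows gut motility, ranged from 123 to 225 CPM in WD_S (median 150), from 66.7 to 215 in HHD_S (median 180) and from 56.8 to 215 in HHD (median 134). Within WD_S, 1 pig stood apart on NTS: WD_S 3 at 225 CPM, with the next at 164. GHRL and MLN, which stimulate motility between meals, were scarce, with 8 to 84 reads per library for GHRL and 1 to 54 for MLN. GHRL ranged from 1.09 to 3.20 CPM in WD_S (median 1.99), from 0.871 to 3.81 in HHD_S (median 1.61) and from 0.395 to 2.87 in HHD (median 1.79). MLN ranged from 0.0978 to 1.85 CPM in WD_S (median 0.728), from 0.0475 to 1.68 in HHD_S (median 0.551) and from 0.297 to 2.36 in HHD (median 0.784).

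**Figure D1:**
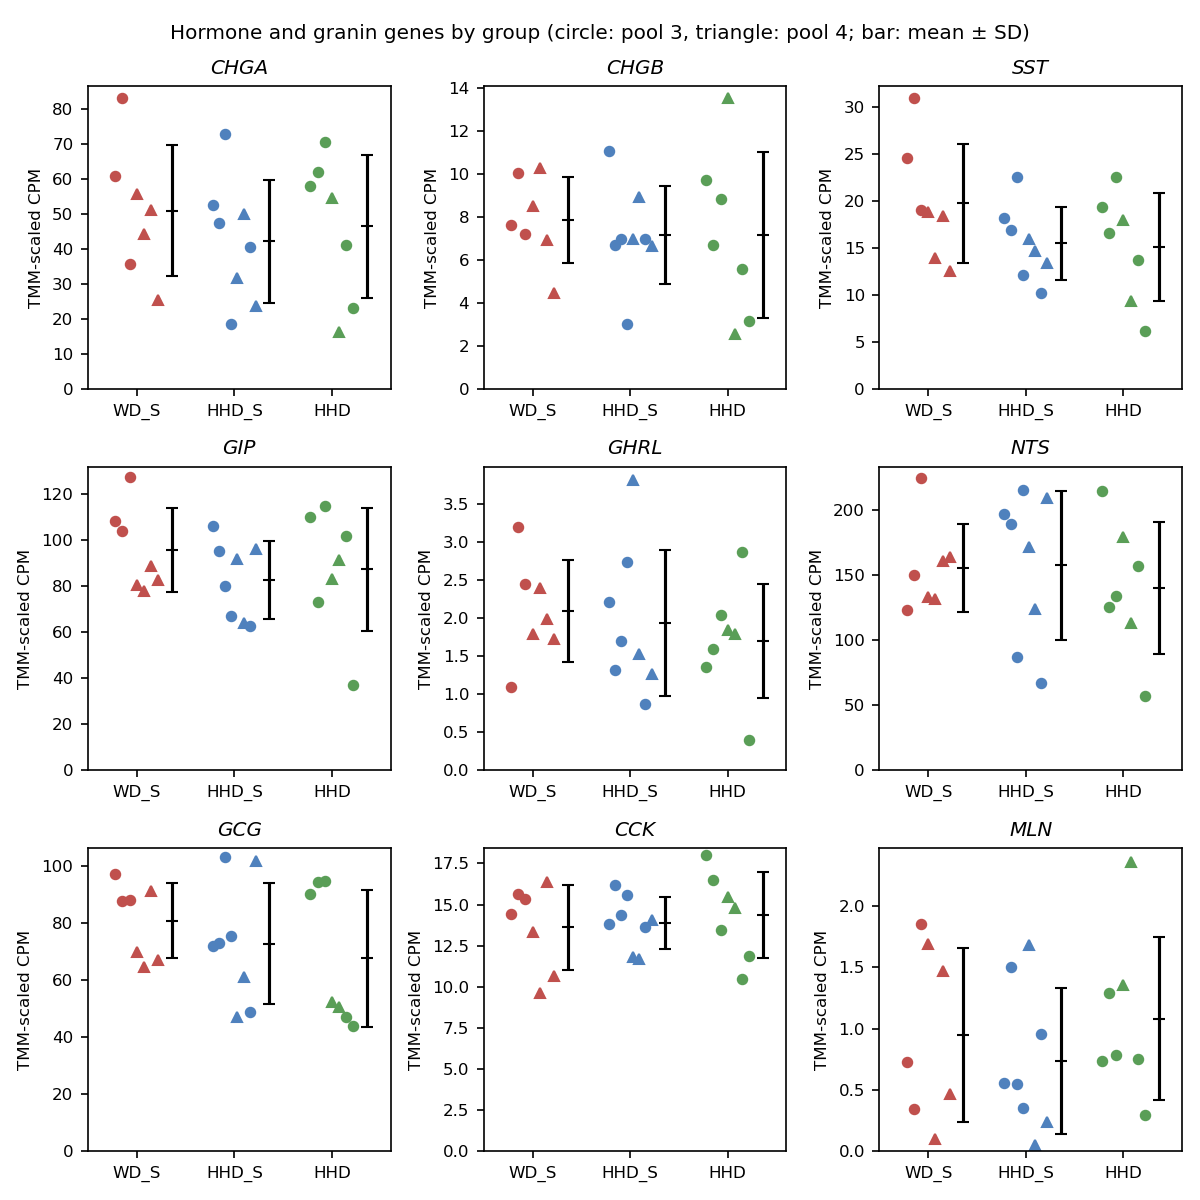
Level of each tested member in every pig, in TMM-scaled CPM on a linear axis from 0, by group. Circles are libraries of pool 3, triangles libraries of pool 4, and the bars give the mean and SD. The groups overlap for all 9 genes, and CCK has the smallest ratio of highest to lowest pig, 1.87 (9.63 to 18.0 CPM).

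The comparison of WD_S with HHD_S asked whether hormone genes differed between the dietary patterns when all pigs took atorvastatin, as the sample labels state. By edgeR's quasi-likelihood test 0 of 9 members were called at an adjusted p of 0.05, where 0% of all 13626 genes were called. At an unadjusted p under 0.05 there were 0 of 9 members, beside 398 genes or 2.92% of all genes. DESeq2 and limma with quality weights also called 0 members, with 4 and 1 genes called in all. Of the 9 members, 8 had a log2 fold change above 0, where 47.1% of all genes did, and 1 below 0, where 52.9% did, with a median of 0.20 beside -0.01 over all genes. Every other gene list examined here also lay above 47.1% in this comparison. Their shares ran from 58.3% of goblet, Paneth and tuft markers to 100% of the 5 tested other hormone genes, with 75% of smooth muscle markers. CCK, at 0.00025, was below 0 with total count scaling. Groups did not overlap for 0 of 9 members and 0.0147% of all genes. These members share pigs and cell types, so the count is a description. SST had a log2 fold change of 0.39 (SE 0.223, 95% interval -0.08 to 0.85, unadjusted p = 0.0968, edgeR adjusted p = 0.999). For CHGA the value was 0.36 (SE 0.297, 95% interval -0.26 to 0.97). GIP had 0.22 (95% interval -0.15 to 0.60) and GCG 0.20 (95% interval -0.20 to 0.59). The interval of CCK ran from 0.833 to 1.20 times the level in HHD_S, and that of NTS from 0.683 to 1.42 times.

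The comparison of HHD_S with HHD asked whether atorvastatin was associated with hormone gene levels under the heart healthy pattern. Of the members, edgeR called 0 of 9 at an adjusted p of 0.05, with 0% of all genes called, and 0 of 9 at an unadjusted p under 0.05, where 247 genes or 1.81% lay. DESeq2 and limma called 0 members, and 1 and 0 genes in all. The values were 5 above 0 and 4 below, with 52.6% of all genes above 0 and 47.4% below, and CHGB, at 0.0017, was below 0 with the size factors of DESeq2. Groups did not overlap for 0 of 9 members and 0.0147% of all genes. The largest difference belonged to MLN, at -0.53 (SE 0.543, 95% interval -1.65 to 0.60), a gene read at most 54 times in a library. NTS had a log2 fold change of 0.17 (95% interval -0.36 to 0.69), GCG 0.15 (95% interval -0.25 to 0.54) and CHGA -0.10 (95% interval -0.71 to 0.52). For GCG, GIP, CCK and SST the interval lay within a 1.5-fold change in either direction.

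By the sample labels, both the dietary pattern and atorvastatin differed between WD_S and HHD, and this comparison shares its libraries with the other 2. Here too edgeR called 0 of 9 members at an adjusted p of 0.05, where 1 gene or 0.00734% of all genes was called, and 0 of 9 at an unadjusted p under 0.05, where 465 genes or 3.41% lay. DESeq2 and limma called 0 members, and 2 and 1 genes in all. Groups did not overlap for 0 of 9 members and 0.0661% of all genes. Of the members 7 had values above 0, where 49% of all genes did. SST had a log2 fold change of 0.46 (SE 0.234, 95% interval -0.03 to 0.94, unadjusted p = 0.0623, edgeR adjusted p = 0.9997). That of GCG was 0.35 (SE 0.202, 95% interval -0.07 to 0.77, unadjusted p = 0.0994). GIP stood at 0.16 (95% interval -0.23 to 0.56) and CCK at -0.04 (95% interval -0.32 to 0.23). In each of the 3 comparisons the 95% interval lay within a 2-fold change for 8 of the 9 genes, MLN being the exception.

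**Figure D2:**
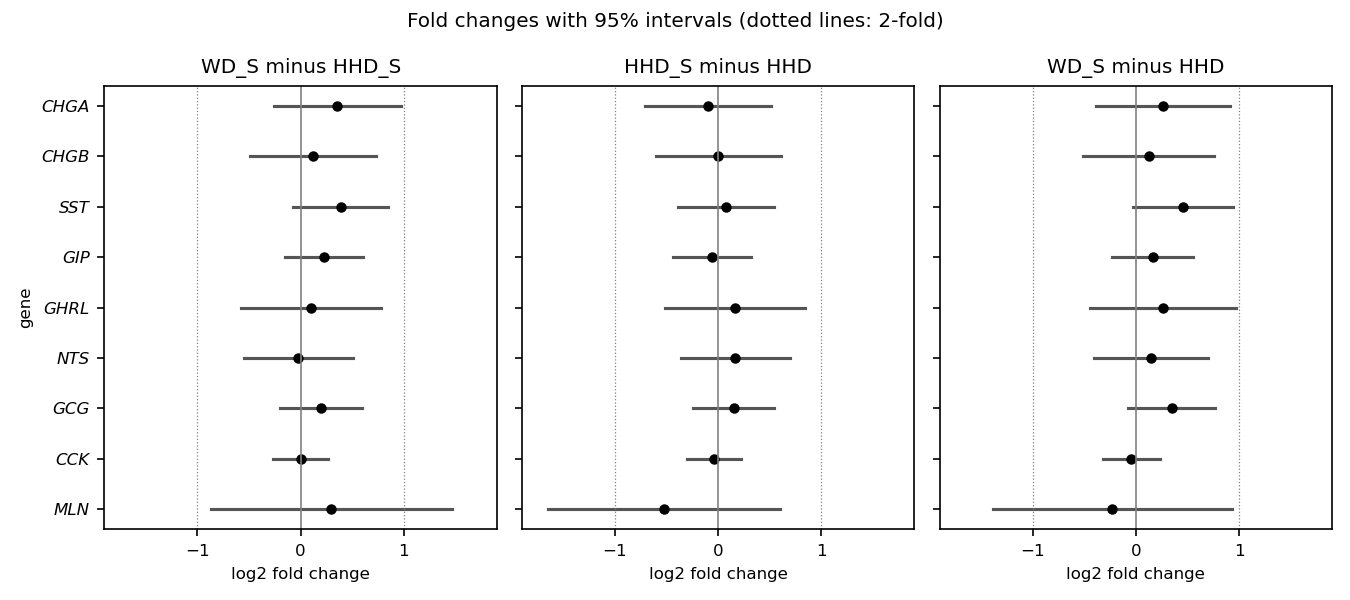
Log2 fold change of each tested member in the 3 comparisons, with edgeR's 95% interval as a line and dotted lines at a 2-fold change. Every interval includes 0, the interval of CCK is the narrowest, and that of MLN crosses a 2-fold line in each panel.

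The other genes of the pathway were followed as lists. Among other hormones and serotonin synthesis genes, 5 of 13 listed genes were tested, and 0 rose or fell in any comparison by edgeR. PYY, the partner hormone of GCG in L cells, stood at 28.6 ± 7.45 CPM over all pigs (SD, n = 22), with log2 fold changes of 0.22 for WD_S against HHD_S, 0.13 for HHD_S against HHD and 0.35 for WD_S against HHD. DDC, a decarboxylase of serotonin synthesis that enterocytes also express, stood at 108 ± 34.4 CPM. Of 15 prohormone processing and granule genes, 12 were tested and 0 rose or fell. PAM, which amidates peptide hormones, stood at 96.1 ± 13.9 CPM, SYT7, a calcium sensor of exocytosis, at 15.1 ± 3.68, CPE, which trims the cut precursors, at 10.4 ± 2.66, while the granin SCG2 ranged from 2.82 to 15.1 CPM. CADPS, a priming factor of granule release, had unadjusted p values of 0.0432 for HHD_S against HHD and 0.0303 for WD_S against HHD, with log2 fold changes of 0.56 and 0.64. It was named after its values were seen and did not pass the adjusted test. CADPS had 12 to 63 reads per library. By edgeR 1 of the 12 tested genes of this list had an unadjusted p under 0.05 in each of these 2 comparisons, where 1.81% and 3.41% of all genes did.

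Of 19 lineage transcription factors, 15 were tested and 0 rose or fell. FOXA1 (9.24 ± 1.80 CPM), RFX6 (7.72 ± 1.61), the secretory lineage factor ATOH1 (7.14 ± 1.70) and PROX1 (4.61 ± 0.920) had the highest CPM of the list. NEUROG3, which starts the enteroendocrine programme, stood at 0.832 ± 0.444 CPM, with log2 fold changes of 0.49, -0.46 and 0.02 in the 3 comparisons in the order above. INSM1, a factor of endocrine differentiation, stood at 0.798 ± 0.245 CPM, with 7 to 26 reads per library. Its log2 fold change was 0.53 for HHD_S against HHD (unadjusted p = 0.0294) and 0.68 for WD_S against HHD (unadjusted p = 0.00977, edgeR adjusted p = 0.9997). INSM1 too was named after its values were seen. By edgeR 1 of 15 factors had an unadjusted p under 0.05 in HHD_S against HHD (1.81% of all genes). In WD_S against HHD 3 of 15 did (3.41%). Values above 0 were found for 12 of the 15 factors in WD_S against HHD_S (47.1% of all genes), 10 in HHD_S against HHD (52.6%) and 14 in WD_S against HHD (49%), with medians of 0.13, 0.09 and 0.09.

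Of 18 nutrient sensors, 9 were tested and 0 rose or fell. SLC5A1, the sodium-glucose transporter that enterocytes also carry, stood at 3083 ± 1009 CPM, the sweet and umami receptor subunit TAS1R3 at 26.3 ± 7.01, LPAR5 at 25.7 ± 4.33 and the irritant channel TRPA1 at 10.9 ± 2.30 CPM. The long-chain fatty acid receptor FFAR4 stood at 1.10 ± 0.292 CPM, with log2 fold changes of -0.10, 0.09 and -0.0070 in the 3 comparisons. Of 19 receptors and peptidases of the member hormones, 8 were tested and 0 rose or fell. DPP4, which inactivates GIP and the glucagon-like peptides, stood at 897 ± 241 CPM and the peptidase MME at 975 ± 303. SORT1, a neurotensin receptor, stood at 140 ± 26.6 and GLP2R, the receptor of a glucagon-like peptide, at 12.7 ± 3.66 CPM. Reads of the receptors SSTR5 and NTSR2 were 0 in all 22 libraries, and GLP1R had 90 reads in all.

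While group means lay close together, single pigs differed widely. The coefficient of variation (CV) over the 22 pigs was 39.5% for CHGA, 36.5% for CHGB, 32.9% for SST and 31.2% for NTS, beside a median of 20.7% over all tested genes. For these genes counting error alone gives 3.19%, 8.02%, 5.33% and 1.77%. CCK had a CV of 15.7%, below the median gene, and GIP one of 23.3%. MLN had the largest CV at 70.1%, and its CV from counting alone, 22.6%, was also the largest of the members. GHRL had a CV of 41.3%, with 15.8% from counting alone. CHGA differed 5.11-fold and SST 5.05-fold between the lowest and the highest pig.

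HHD 7 was the lowest of all 22 pigs for 5 of the 9 genes and among the lowest 3 for 7 of them. In this pig GIP stood at 36.9 CPM, NTS at 56.8, SST at 6.13, GCG at 44.0 and GHRL at 0.395, all lowest, while CHGB was at 3.16 and CCK at 11.9. Its depth of 19154365 counts was within the range of the others. HHD 7 was also the lowest pig for the summed neuron and glia markers (20.4 CPM) and the summed granule and processing list (117 CPM), and next to lowest for smooth muscle markers (402 CPM). Its lineage transcription factor sum of 47.15 CPM was the median of HHD. Its crypt and division markers summed to 1909 CPM (876 to 2019 in HHD). Its goblet, Paneth and tuft markers summed to 5213 (4177 to 6576 in HHD) and its enterocyte markers to 30724 (30454 to 51211 in HHD). Its pig number, 2357, puts it among the 5 pigs numbered 2356 and above. The part of these in its hormone gene levels was not tested. HHD 5 showed another pattern, with the lowest CHGA (16.3 CPM) and CHGB (2.58 CPM) and the highest MLN (2.36 CPM), next to 91.4 CPM of GIP. WD_S 2 had the highest CHGA and SST, and WD_S 3 the highest GIP and NTS.

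**Figure D3:**
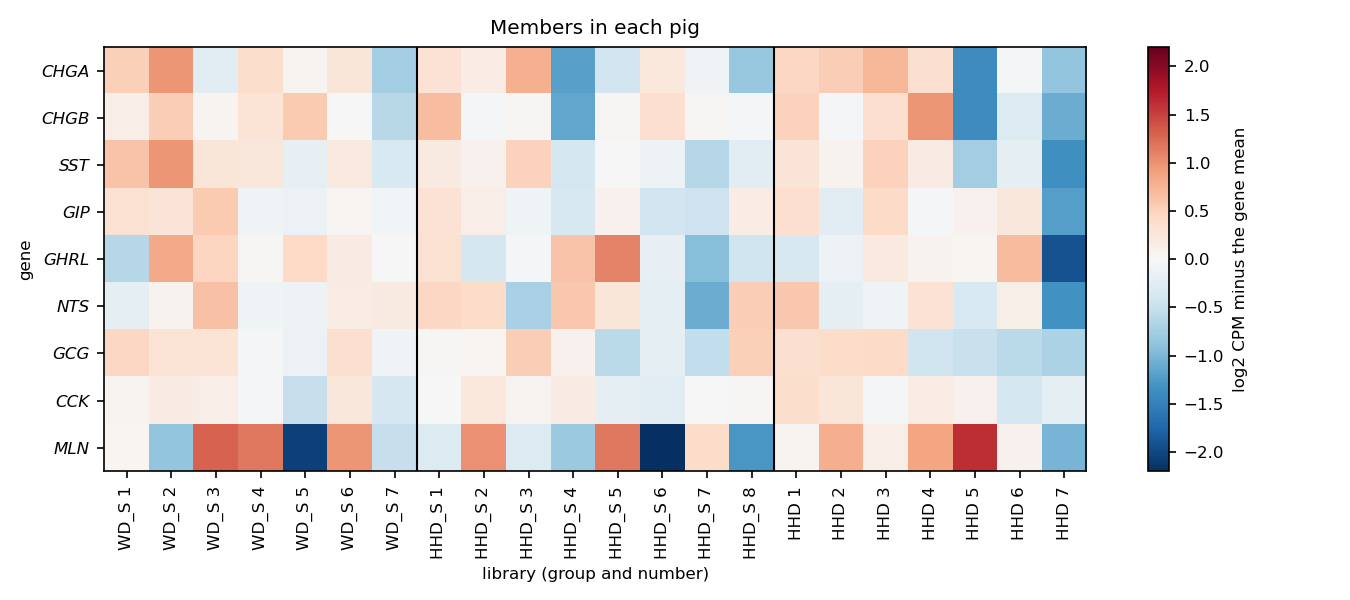
Members in each of the 22 libraries as log2 CPM minus the mean of the gene, blue below and red above it, with black lines between the groups. The column of HHD 7 is blue in all 9 rows, HHD 5 is blue for CHGA and CHGB and red for MLN, and MLN shows the widest swings.

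Correlations across the 22 pigs were mostly positive and of unequal size. Over the 36 pairs of tested members, r was positive in 32 and negative in 4, with a median of 0.34, and 8 had an adjusted p under 0.05 for Pearson's r and 5 of these also for Spearman's rho (two-sided permutation tests with 100000 resamples, Benjamini-Hochberg over pairs). CHGA and SST were correlated with r = 0.80 (adjusted p = 0.00072) and rho = 0.86 (adjusted p = 0.00036), and r was 0.79 without the 2 pigs farthest from the median of CHGA. The r of CHGA and SST was 0.80 in the 13 libraries of pool 3 and 0.88 in the 9 of pool 4. The granins CHGA and CHGB had r = 0.80 (adjusted p = 0.00072) and rho = 0.64 (adjusted p = 0.0151), with 0.65 without those 2 pigs, 0.85 in pool 3 and 0.86 in pool 4. CHGB and SST had r = 0.69 (adjusted p = 0.00331) and rho = 0.64 (adjusted p = 0.0151), with 0.65 without the 2 pigs, 0.76 in pool 3 and 0.79 in pool 4. CHGA, CHGB and SST thus varied together across pigs, within both pools. Such values were not particular to hormone genes: CHGA had r = 0.79 with the summed smooth muscle markers and 0.92 with ECM1. The share of all gene pairs with such r was not computed.

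GCG and SST had r = 0.68 (adjusted p = 0.00312) and rho = 0.64 (adjusted p = 0.0151), with 0.64 without the 2 farthest pigs, 0.83 in pool 3 and 0.20 in pool 4. The relation of GCG to SST was therefore not seen within pool 4. For GIP and SST r was 0.71 (adjusted p = 0.00331) and rho 0.60 (adjusted p = 0.0264), and r was 0.42 without the 2 farthest pigs, 0.83 in pool 3 and -0.18 in pool 4. Another trio, GIP, NTS and GHRL, passed for Pearson's r and not for Spearman's rho. Its values were r = 0.68 and rho = 0.52 for GIP and NTS (adjusted p = 0.00492 and 0.0641), 0.62 and 0.41 for GHRL and NTS (adjusted p = 0.0166 and 0.237), and 0.58 and 0.31 for GIP and GHRL (adjusted p = 0.0351 and 0.364). Without the 2 pigs farthest from the median of the first gene these r were 0.33, 0.39 and 0.04, and within pool 4 they were 0.52, -0.03 and 0.17. Without HHD 7 alone, the r of GIP with NTS, GHRL and SST was 0.49, 0.23 and 0.52 and that of GHRL with NTS 0.39, and none of these 4 passed (adjusted p from 0.117 to 0.640). These adjusted calls were thus lost without HHD 7, while r remained above 0. No other pig was left out alone for these pairs, and rho was not computed again without HHD 7. CHGA and NTS had r = -0.02 and rho = -0.15, and CHGA and MLN r = 0.01. With group and pool means removed from each gene, r was 0.79 for CHGA and SST, 0.86 for CHGA and CHGB and 0.71 for CHGB and SST.

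**Figure D4:**
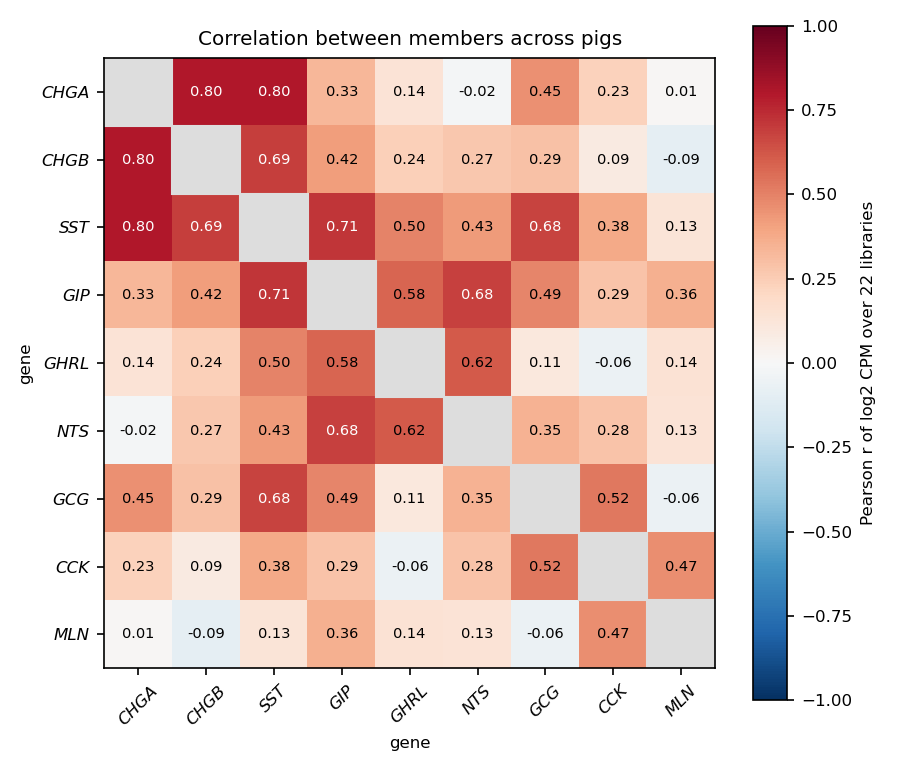
Pearson's r of log2 CPM over 22 libraries for each pair of tested members, red above 0 and blue below it. The block of CHGA, CHGB and SST at the upper left lies between 0.69 and 0.80, and MLN has values near 0 with CHGA, CHGB and GCG.

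The same pigs differed in other tissue markers. Of 63 relations computed between the 9 genes and the summed levels of 7 lists, 5 passed for both coefficients. The share of other genes that follow these lists was not computed. CHGA followed the granule and processing list, a sum to which PAM contributed most, with r = 0.90 (adjusted p = 0.00063) and rho = 0.86 (adjusted p = 0.000315), with 0.90 without the 2 farthest pigs and 0.89 in each pool. SST followed the same list with r = 0.76 and rho = 0.77 (adjusted p = 0.00084 for each), with 0.73 without the 2 farthest pigs, 0.78 in pool 3 and 0.72 in pool 4. GCG followed the lineage transcription factors with r = 0.69 (adjusted p = 0.00378) and rho = 0.74 (adjusted p = 0.00205), with 0.67 without the 2 farthest pigs, 0.59 in pool 3 and 0.88 in pool 4. CHGA also followed the smooth muscle markers, with r = 0.79 (adjusted p = 0.00063) and rho = 0.85 (adjusted p = 0.000315), with 0.86 without the 2 farthest pigs, 0.86 in pool 3 and 0.64 in pool 4. For SST and smooth muscle r was 0.72 (adjusted p = 0.00189) and rho 0.73 (adjusted p = 0.00252), with 0.69 without the 2 farthest pigs, 0.78 in pool 3 and 0.50 in pool 4.

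All 8 smooth muscle markers had reads in all 22 libraries, and their sum ran from 489 to 1189 CPM in WD_S, from 370 to 1478 in HHD_S and from 402 to 1243 in HHD. MYH11, the smooth muscle myosin, ran from 61.5 to 412 CPM over all pigs. Neuron and glia markers, of which 18 of 19 had a row, summed to 20.6 to 60.4 CPM in WD_S, 26.8 to 62.6 in HHD_S and 20.4 to 69.0 in HHD. The neuronal marker ELAVL4 had 46 reads in all and ELAVL3 had 14, while TUBB3 had 2351 and VIP 1415. STMN2, with 8401 reads and a mean of 18.1 CPM, contributed most to this sum. CHGA and the neuron and glia sum had r = 0.32 and rho = 0.41 (adjusted p = 0.347 and 0.182), and for SST r was 0.49 and rho 0.45 (adjusted p = 0.0964 and 0.146). The part of muscle or neuron content in the hormone gene levels was not tested.

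**Figure D5:**
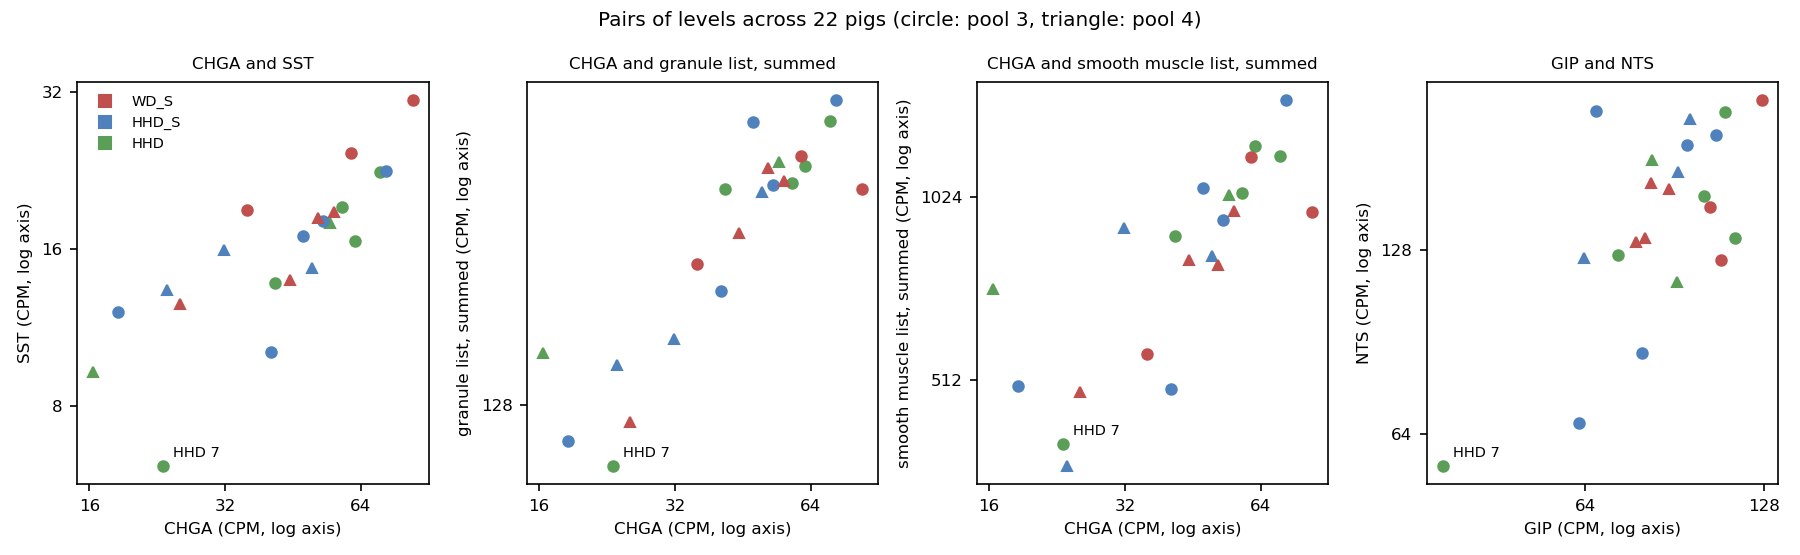
Levels in the 22 pigs, all axes logarithmic in CPM, for CHGA with SST, CHGA with the summed granule list, CHGA with the summed smooth muscle list, and GIP with NTS. Colours are groups, circles pool 3 and triangles pool 4. In the last panel HHD 7 lies apart at 36.9 CPM of GIP and 56.8 CPM of NTS.

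Likeness to the members was ranked over 11020 other named genes above a mean log2 CPM of 1. Among those most like the mean profile of the 9 members over the 22 pigs were PYY (r = 0.84), DPEP2 (0.82), SIAE, RGN and MMP9 (0.80 each), and ITGAX and FGGY (0.79 each). Their rho was lower, from 0.54 for RGN to 0.72 for PYY. Within pool 4 their r ran from 0.42 for FGGY to 0.80 for DPEP2. In the mean profile HHD 7 stood at -1.08, with the next lowest pig, HHD_S 7, at -0.37. The part of HHD 7 in these r was not tested. PYY is itself an enteroendocrine hormone, and ITGAX is an integrin of myeloid cells. The genes most like CHGA were ECM1, KIAA1324 and LTBP4 (0.92, 0.91 and 0.91), of which ECM1 and LTBP4 encode extracellular matrix proteins. Those most like CHGB were SUPT5H (0.84), PCSK1 (0.80), the convertase that cuts hormone precursors, and PCIF1 (0.80). For GCG they were CCL11 (0.77), SERTAD4 (0.74) and STAT5B (0.73). These genes were picked for their r, which is a description without a test.

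Pigs numbered 2356 and above, 5 in all and present in each group, differed from the others in many genes. The edgeR fit held group, pool and a term for these pigs. For this term 22.5% of all genes had an unadjusted p under 0.05, beside 3 of 9 members. Such differences were thus not particular to the members. The term was listed as an alternative for the group comparisons, and its own values were taken up after the data were seen. SST stood at 11.2 ± 3.15 CPM in these 5 pigs (SD, n = 5) and 18.3 ± 4.99 in the other 17 (SD, n = 17), with a log2 difference of -0.63 (SE 0.191, unadjusted p = 0.00343, edgeR adjusted p = 0.0565). CHGA stood at 30.8 ± 9.18 and 51.0 ± 17.9 CPM, a log2 difference of -0.70 (SE 0.270, edgeR adjusted p = 0.131). All 5 pigs lay below the median of all pigs for CHGA, CHGB, CCK and SST. For GCG and GHRL 4 of the 5 did, for GIP and MLN 3, and for NTS 2. The share over all genes was not computed for this count. By edgeR 0 of 9 members passed at an adjusted p of 0.05, where 762 genes or 5.59% of all did. Without these 5 pigs, r was 0.86 for CHGA and SST (adjusted p = 0.00072), 0.79 for CHGA and CHGB (adjusted p = 0.0306), 0.63 for CHGB and SST (adjusted p = 0.0774) and 0.64 for GCG and SST (adjusted p = 0.0664). These 4 r were close to those in all pigs, and 2 of the 8 pairs passed for Pearson's r in the remaining 17 pigs. The other 4 of the 8 pairs had lower r in these 17 pigs. GIP had 0.49 with SST, 0.34 with NTS and 0.02 with GHRL, beside 0.71, 0.68 and 0.58 in all pigs. GHRL and NTS had 0.28, beside 0.62 in all pigs. Between the library pools 0 of 9 members differed by edgeR, with 0% of all genes called, and 0 of 9 had an unadjusted p under 0.05, where 4.42% of all genes did.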

How the data were processed

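Jejunal mucosa RNA from 22 pigs was sequenced as single 150-base reads of TruSeq version 2 libraries, per the labels' protocols. Reads were processed in a CLC workbench with the annotated pig genome Sscrofa11.1, per the labels' protocols, and the sources used here give neither its version nor its mapping parameters. The deposited values are raw counts per gene, taken from the unique exon read column, per the file headers. Groups follow the diet label, and the library pool (3 or 4) was read from the names of the deposited files.

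Counts were filtered with filterByExpr (minimum count 10), scaled by TMM and fitted with edgeR 4.0.16 in R 4.3.3 (robust quasi-likelihood, all 3 groups, pool as an additive term, 18 residual degrees of freedom). P values were adjusted by Benjamini-Hochberg over all 13626 genes, and standard errors are the log2 fold change over the root of F. Totals of 15316437 to 31564022 counts set the precision, which counting limits most for MLN, GHRL and SCT. Every pair of libraries differed by more than sampling noise (smallest reduced chi-square 25.2 over 231 pairs). Correlations used log2 CPM with a prior count of 2. Alternatives used DESeq2 1.42.0, limma 3.58.1, other scalings and filters, single pools and each library left out. The members and lists were chosen with earlier results of these data known. Named are all members, up to 4 genes of highest CPM per pathway list, the genes most like the members (1 of which is not reported here), and some named after their values were seen. RefSeq sequences were not used here.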

Additional observations from a re-analysis of the deposited data

Results flagged for a closer look

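NTS in WD_S 3 was set apart from its group: it stood at 224.7 CPM, with the next WD_S pig at 164.1 CPM, a gap of 0.597 of the group's range over 7 pigs. It was the 1 value flagged among 27 combinations of gene and group, and chance flags about 1 in 20 groups.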

How the results depend on the processing

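No member was called by edgeR under any alternative, each library left out included, nor by DESeq2 or limma, where the smallest adjusted p was 0.384, with limma. Under the other alternatives 302 fold changes kept their direction and 22 reversed, and with 1 library left out 551 kept it and 43 reversed. For WD_S against HHD_S, CCK was -0.0276 without the pool term, -0.00202 in pool 4 alone, -0.0329 with total count scaling and -0.0393 with the term for late pig numbers. In pool 4 alone GHRL was -0.16 and GIP -0.0268, and in pool 3 alone NTS was 0.15. For HHD_S against HHD, CHGB was -0.0883 in pool 4 alone, -0.0148 with only the 2 groups, -0.00348 with DESeq2's size factors, -0.00514 with DESeq2, -0.00145 without a filter and -0.00721 with a CPM filter. In pool 3 alone CCK was 0.0535, GCG -0.00354 and MLN 0.00234, and with limma GCG was -0.0526 and GIP 0.0314. For WD_S against HHD, pool 3 alone gave CCK 0.11 and MLN 0.32, and pool 4 alone CHGB -0.0821 and GIP -0.0787. The cause of these changes was not tested. With 1 library left out, reversals occurred for WD_S against HHD_S in CCK (-0.0625 to 0.0559), GHRL (-0.0784 to 0.37), MLN (-0.0775 to 0.64) and NTS (-0.15 to 0.063). For HHD_S against HHD they occurred in CCK (-0.12 to 0.00151), CHGA (-0.24 to 0.0706), CHGB (-0.16 to 0.30), GHRL (-0.0479 to 0.34), GIP (-0.19 to 0.00529) and SST (-0.0642 to 0.20). For WD_S against HHD they occurred in CCK (-0.10 to 0.0121), CHGB (-0.065 to 0.47), MLN (-0.59 to 0.11) and NTS (-0.00326 to 0.27).

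Over all genes, the number called for WD_S against HHD_S was 0, and 2 without the pool term, 4 with DESeq2, 1 with limma, 2 with the late-number term and 0 to 2 with 1 library left out. For HHD_S against HHD it was 0, and 1 with DESeq2. For WD_S against HHD it was 1, and 0 in pool 3 alone, 0 in pool 4 alone, 0 with total counts, 2 with DESeq2, 2 with the late-number term and 0 to 1 with 1 library left out. Of correlated pairs, 8 passed in all pigs, 4 without HHD 7, 2 without the 5 late-numbered pigs and 10 with group and pool means removed, these 3 settings being added after the data were seen. With total count scaling 9 pairs passed: GIP and GHRL did not (r = 0.53, adjusted p = 0.0605), while GCG and CCK (r = 0.60, adjusted p = 0.0163) and GCG and GIP (r = 0.52, adjusted p = 0.0469) did. No paired analysis was possible because each pig has a number of its own. Depth limits MLN, GHRL and SCT most.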
